A study of Ovis aries with 9 samples.

Results

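The genes described here encode the synaptic vesicle release machinery, and they were SNAP25, SYT1, SYN1, SYN2, STX1A, VAMP2, SYP and CPLX1. They were chosen by their RefSeq sheep symbols, and the level of a gene was the sum of the values of its protein-coding transcripts. These 8 genes were taken from the 21284 genes that had such a transcript in the deposited table, and all 8 passed the filter on low values. The libraries came from whole hypothalamic tissue of Dolang ewes, with 1 library per animal and 3 animals per stage. Prepubertal ewes were 120 or 121 days old, pubertal ewes 130 or 131 days and postpubertal ewes 150 or 151 days. Stage was judged by estrus behaviour and the state of the vulva, the ewes were kept in the same way, and no treatment is described for any group. The stages therefore differ in age as well as in estrus state, and these cannot be told apart. Values are FPKM, fragments counted relative to transcript length and library size, which allow levels to be compared between genes of different length. The question put to these genes was whether their levels differed between stages, and how they varied from ewe to ewe.

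A neuron releases transmitter when a vesicle filled with it fuses with the membrane of the axon terminal. VAMP2 on the vesicle winds together with STX1A and SNAP25 on the terminal membrane into a complex, the SNARE complex, which pulls the membranes together. SYT1 senses the calcium that enters with an action potential, CPLX1 clamps and then primes the assembled complex, SYN1 and SYN2 tether vesicles in a reserve pool, and SYP is an abundant vesicle membrane protein. In the hypothalamus the same machinery serves fast transmission by glutamate and GABA, and related proteins serve the release of neuropeptides.

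One library, Puberty 2, stood apart. Its values summed to 599726 FPKM over all transcripts, against 359588 to 398109 in the other 8 libraries, and 42441 of its transcripts were above 0, against 67824 to 71787. In Puberty 2, 32 genes were listed at 0 that reached at least 10 FPKM in each other library, and no other library had such a gene. Levels are therefore given by library, and stage differences of the release genes with and without Puberty 2. Of 19 markers of the labelled tissue, 10 had a mean level below 1 FPKM and 9 reached it, and FEZF1 and GNRH1 were listed at 0 in all 9 libraries. The transcription factors NKX2-1, SIM1 and RAX did not exceed 0.262, 0.111 and 0.0975 FPKM in any library. Among the neuropeptides, SST stood at 4.27 to 107 FPKM, CRH at 0.392 to 118, TRH at 0.824 to 36.8, NPY at 0.222 to 22.7 and POMC at 2.09 to 22.4 FPKM. Choroid plexus markers summed to 7646 FPKM in Puberty 3 and to 13.2 to 731 FPKM in the other libraries. Anterior pituitary markers summed to 204 FPKM in Postpuberty 1 and to 0.246 to 81.9 FPKM in the others. Markers of cortex and thalamus summed to 3.68 to 16.6 FPKM. The summed level of 11 neuron markers, with 0 of them below a mean of 1 FPKM, ran from 818 to 1879 FPKM in prepuberty, from 699 to 1805 in puberty and from 471 to 2279 in postpuberty. The oligodendrocyte markers, 8 of 8 above that level, ran from 6496 to 14900, from 9664 to 11842 and from 6730 to 14696 FPKM in the same order.

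SNAP25 was the most abundant of the 8 genes in 8 libraries, and its mean over those 8 libraries exceeded that of 99.5% of the 14238 genes kept. The gene lies on chromosome 13, 3296300 to 3383841, of the assembly ARS-UI_Ramb_v3.0. Its level was 144, 558 and 292 FPKM in Prepuberty 1, 2 and 3. It was 366, 57.0 and 448 FPKM in Puberty 1, 2 and 3. It was 211, 448 and 340 FPKM in Postpuberty 1, 2 and 3. Prepuberty 1 and Postpuberty 1 were the lowest of the 8 libraries other than Puberty 2, Prepuberty 2 was the highest, and all stages overlapped. The stage means were 331 ± 210, 291 ± 206 and 333 ± 119 FPKM (SD, n = 3 each), and the puberty mean was 407 FPKM over the 2 libraries other than Puberty 2. Puberty 2 lay below all the others.

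VAMP2, the vesicle SNARE, was the steadiest of the 8 genes. The gene lies on chromosome 11, 27612660 to 27616416, and 1 transcript was summed. VAMP2 stood at 83.9, 140 and 85.9 FPKM in the prepubertal libraries, at 99.1, 114 and 93.6 in the pubertal libraries and at 89.7, 124 and 96.5 in the postpubertal libraries. Its highest library was 1.67-fold above its lowest among the 8 libraries, and Puberty 2 lay within their range. The stage means were 103 ± 32.0, 102 ± 10.5 and 103 ± 17.9 FPKM (SD, n = 3 each).

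STX1A, the membrane SNARE that pairs with SNAP25, had the lowest mean of the 8 genes, above that of 25.2% of the genes kept. The gene lies on chromosome 24, 34007102 to 34024773. It stood at 1.84, 3.02 and 1.43 FPKM in prepuberty, at 1.92, 0.997 and 1.46 in puberty and at 0.90, 1.69 and 2.84 in postpuberty. Each stage held a library below 1.5 FPKM, and the stages overlapped. The stage means were 2.10 ± 0.824, 1.46 ± 0.461 and 1.81 ± 0.975 FPKM (SD, n = 3 each).

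SYT1, the calcium sensor, spread more widely than the SNARE genes. The gene lies on chromosome 3, 114928513 to 115562807. It stood at 17.5, 117 and 34.1 FPKM in the prepubertal libraries, at 35.6, 3.13 and 69.1 in the pubertal libraries and at 52.8, 68.1 and 32.2 in the postpubertal libraries. Puberty 2 was again below all others, and the 8 other libraries spanned 6.68-fold, from Prepuberty 1 to Prepuberty 2. The stage means were 56.1 ± 53.1, 35.9 ± 33.0 and 51.0 ± 18.0 FPKM (SD, n = 3 each), and the puberty mean without Puberty 2 was 52.3 FPKM (n = 2).

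CPLX1, the complexin that binds the assembled SNARE complex, had the widest spread of the 8 genes. The gene lies on chromosome 6, 118174978 to 118220499, and a single transcript was summed. It stood at 19.0, 1.59 and 0.370 FPKM in the prepubertal libraries, at 0.246, 71.2 and 3.12 in the pubertal libraries and at 11.5, 20.6 and 0.282 in the postpubertal libraries. The stage means were 6.99 ± 10.4, 24.9 ± 40.1 and 10.8 ± 10.2 FPKM (SD, n = 3 each), and the puberty mean without Puberty 2 was 1.69 FPKM (n = 2). Prepuberty and postpuberty each held a library above 10 FPKM and one below 0.4 FPKM, while in puberty Puberty 2 alone was above 10 FPKM. Puberty 2, the lowest library for SNAP25 and SYT1, was the highest for CPLX1. Without it the highest library was still 83.7-fold above the lowest. The spread of CPLX1 on the log2 scale over the 8 libraries, an SD of 1.78, exceeded that of 99.8% of the genes kept, where the median SD was 0.28.

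Of the vesicle genes SYP, SYN1 and SYN2, the most abundant was SYP, on chromosome X, 55948389 to 55960541. It stood at 44.3, 197 and 89.9 FPKM in prepuberty, at 126, 82.1 and 112 in puberty and at 55.4, 165 and 108 in postpuberty. Prepuberty 1 and Postpuberty 1 were the lowest and Prepuberty 2 and Postpuberty 2 the highest, while Puberty 2 lay inside the range. The stage means were 110 ± 78.5, 107 ± 22.6 and 109 ± 54.6 FPKM (SD, n = 3 each).

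SYN1, also on chromosome X, 57208077 to 57262256, stood at 14.9, 49.9 and 28.8 FPKM in prepuberty, at 38.4, 17.7 and 32.6 in puberty and at 13.5, 36.0 and 34.7 in postpuberty. SYN2, on chromosome 19, 56786634 to 57002938, stood at 3.36, 21.7 and 9.94 FPKM, at 11.0, 3.82 and 15.0, and at 10.0, 12.9 and 11.5 FPKM in the same order. Both were highest in Prepuberty 2, and their stages overlapped. The stage means of SYN1 were 31.2 ± 17.6, 29.6 ± 10.7 and 28.1 ± 12.6 FPKM, and those of SYN2 were 11.7 ± 9.28, 9.94 ± 5.65 and 11.5 ± 1.42 FPKM (SD, n = 3 each). The annotated span of SYN1 overlaps those of TIMP1, ZNF81 and ARAF, and that of SYN2 overlaps TIMP4 and LOC121817276, a long noncoding RNA. The spans of SNAP25 and STX1A each overlap a long noncoding RNA gene as well, LOC105613179 and LOC132658575. Since the counting is not stated to use strand, reads of such neighbours could not be told apart where their exons meet.

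**Figure D1:**
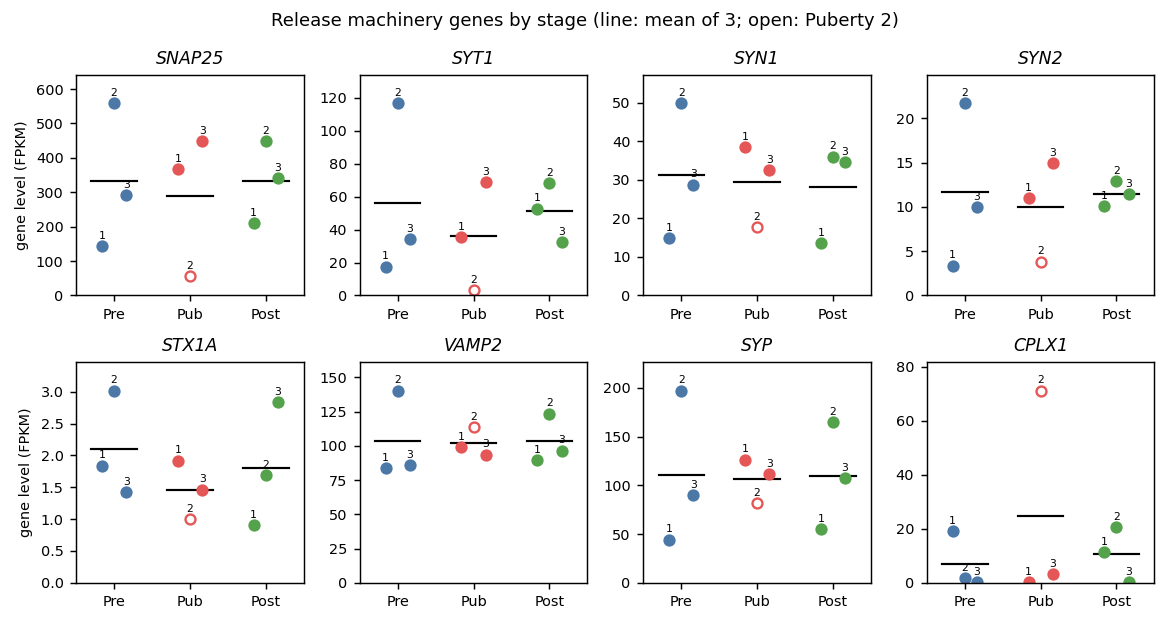
Level in FPKM (vertical axis, from 0) of the 8 release genes in prepuberty, puberty and postpuberty, 1 point per library with its replicate number, the mean of 3 as a line and Puberty 2 as an open point. Prepuberty 2 is the highest of the 8 other libraries in 7 genes, whereas CPLX1 runs from 0.246 to 20.6 FPKM in those libraries and reaches 71.2 in Puberty 2.

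Variation among ewes ran in the same direction for most of these genes. Of the 8 libraries other than Puberty 2, Prepuberty 2 held the highest level of 7 genes, and Prepuberty 1 the lowest of SNAP25, SYT1, SYN2, VAMP2 and SYP. SYN1 and STX1A were lowest in Postpuberty 1. Together the 8 genes made up 0.0825% of all FPKM in Prepuberty 1 and 0.303% in Prepuberty 2, both from the same stage, and 0.0583% in Puberty 2. SNAP25 was 43.7% to 57.8% of that sum in the 8 libraries and 16.3% in Puberty 2. The SD of SNAP25, SYT1, SYN1, SYN2 and SYP on the log2 scale exceeded that of 88.5% to 94.4% of all genes kept, that of STX1A exceeded 63.5% and that of VAMP2 46.3%. In whole tissue, fewer neurons and less RNA per neuron cannot be told apart.

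Because the values of Puberty 2 sum to more than those of the other libraries, its place depended on the scale. On the FPKM scale, 2 of the 8 genes were lowest of all 9 libraries in Puberty 2. When each library was scaled to the same total (TPM), 6 genes were lowest there, all but SYP and CPLX1. SYN1, for example, stood at 29.6 TPM in Puberty 2 and at 37.3 to 139 TPM in the other 8 libraries. VAMP2 stood at 190 TPM there and at 211 to 390 TPM in the others. CPLX1 was highest in Puberty 2 on both scales.

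No stage difference of the 8 genes was larger than the spread between ewes. With limma on log2(FPKM + 1), 0 of 8 genes passed an absolute log2 fold change of 1 and an adjusted p below 0.05 in any of the 3 comparisons. Over all 14238 genes kept, 0 (percent called 0 in each) passed as well. An unadjusted p below 0.05 was found for 259 genes (1.82%) between prepuberty and puberty, for 305 (2.14%) between puberty and postpuberty and for 116 (0.815%) between prepuberty and postpuberty, and for 0 of the 8 release genes in each. Library values of the stages did not overlap for 5.16%, 7.32% and 4.57% of all genes in the same order, and overlapped for all 8 release genes. An exact permutation test of 3 against 3 cannot give a p below 0.1.

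Between prepuberty and puberty, SNAP25 differed by -0.44 on the log2(FPKM + 1) scale (SE 0.78, limma adjusted p = 0.865) and SYT1 by -0.95 (SE 1.01, limma adjusted p = 0.838). VAMP2 differed by 0.02 (SE 0.27), and its 95% interval ran from -0.60 to 0.64. SYP differed by 0.18 (SE 0.56) and SYN1 by 0.01 (SE 0.52). SYN2 and STX1A differed by -0.08 (SE 0.61) and -0.32 (SE 0.33). CPLX1 differed by 0.79, with an interval from -2.88 to 4.47, so that changes of several fold in either direction could not be told from the spread for this gene. The median of the 8 differences was -0.03, beside -0.14 over all genes kept.

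Between puberty and postpuberty, SNAP25 was 0.59 higher in postpuberty (SE 0.78, limma adjusted p = 0.789) and SYT1 1.18 higher (SE 1.01, limma adjusted p = 0.780). For VAMP2, SYP, SYN1 and CPLX1 the differences were 0.01, -0.08, -0.12 and -0.04. SYN2 differed by 0.35 (SE 0.61) and STX1A by 0.15 (SE 0.33). The median over the 8 genes was 0.08, beside 0.19 over all genes kept. This comparison and the one before share the pubertal libraries, and so share Puberty 2.

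Between prepuberty and postpuberty, where Puberty 2 enters only the estimate of the spread, the differences were small for most genes. SNAP25 differed by 0.15 (SE 0.78), SYT1 by 0.23 (SE 1.01), SYN2 by 0.27 (SE 0.61), SYP by 0.11 (SE 0.56) and VAMP2 by 0.03 (SE 0.27). SYN1 and STX1A differed by -0.11 (SE 0.52) and -0.17 (SE 0.33), and CPLX1 by 0.76 (SE 1.63). All adjusted p were 1. The median over the 8 genes was 0.13, beside 0.05 over all genes kept.

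Leaving out Puberty 2 turned the direction of several differences and ended none, since none had passed. Puberty over prepuberty became 0.50 for SNAP25 (SE 0.56), 0.26 for SYT1 (SE 0.74), 0.43 for SYN2 (SE 0.59) and -0.87 for CPLX1 (SE 1.47). For SYN1, SYP and STX1A it was 0.33 (SE 0.55), 0.36 (SE 0.64) and -0.17 (SE 0.34). VAMP2 differed by -0.06 in that fit, with a 95% interval from -0.67 to 0.55. Postpuberty over puberty became -0.35 for SNAP25, -0.02 for SYT1 and 1.63 for CPLX1. It was -0.44 for SYN1, -0.16 for SYN2, -0.25 for SYP, 0.01 for STX1A and 0.09 for VAMP2. The limma adjusted p was 1 for each of the 8 genes in all 3 comparisons, and their stages still overlapped. An unadjusted p below 0.05 was found for 0 of the 8 genes, and for 1.66%, 2.11% and 1.87% of all genes in the order above. In these 8 libraries the stages did not overlap for 11.7% of all genes between prepuberty and puberty, and for 14% between puberty and postpuberty. With fewer pubertal libraries, a lack of overlap is easier to reach by construction.

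**Figure D2:**
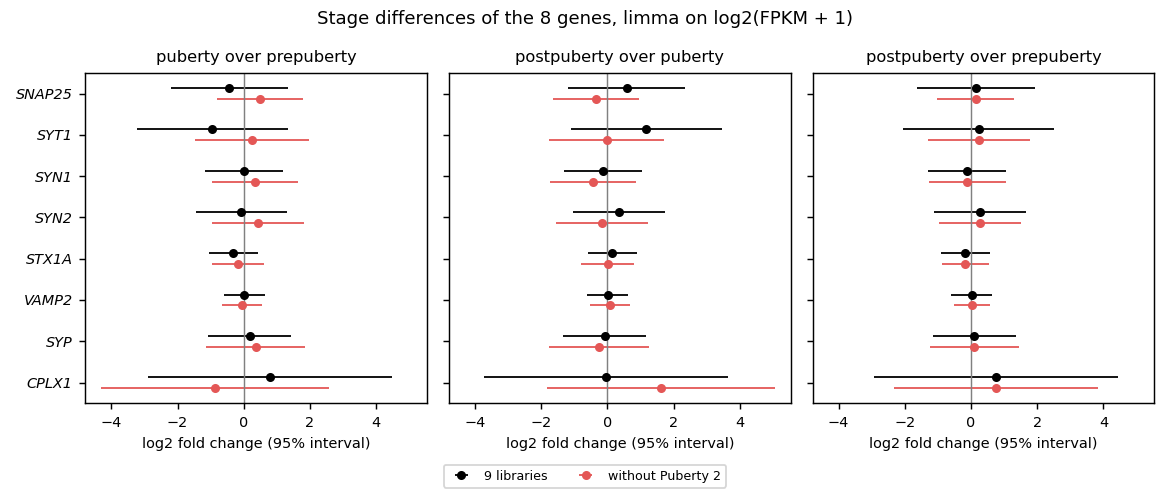
Difference of each release gene in each stage comparison on the log2(FPKM + 1) scale (horizontal axis), with its 95% interval from limma, over all 9 libraries (black) and without Puberty 2 (red). Every interval includes 0, that of VAMP2 is the narrowest in each comparison and that of CPLX1 the widest.

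The single transcripts gave a like picture. Of 13 transcripts of these genes kept among 27674, 0 passed the thresholds in any comparison, and 0 of all transcripts did. One, a minor SYN2 transcript (XM_060402683.1), had an unadjusted limma p below 0.05, at 0.53 higher in postpuberty than in puberty (SE 0.21, limma adjusted p = 0.781). Over all transcripts 952 (3.44%) had such a p in that comparison. It stood at 0, 0 and 0.118 FPKM in puberty and at 0.373, 0.748 and 0.409 FPKM in postpuberty, against 9.67 to 12.1 FPKM for the main SYN2 transcript (XM_015102478.4) in postpuberty. In Puberty 2 the SYT1 transcript XM_027967161.3 and the SYN1 transcript XM_015104912.4 were listed at 0, although they held 9.90 to 76.7 and 5.11 to 21.9 FPKM in the other libraries. The low SYT1 level of Puberty 2 thus rested on the transcript XM_027967160.3 alone, at 3.13 FPKM.

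Most pairs of release genes were positively correlated across ewes. Over the 8 libraries other than Puberty 2, SNAP25 and SYP had a Pearson's r of 0.967 (exact permutation p = 0.000149, adjusted p = 0.00243 over 28 pairs; Spearman's rho 0.929, exact permutation p = 0.00223). For SYN1 and SYP r was 0.954 (exact permutation p = 0.00067, adjusted p = 0.00625; rho 0.929). For SNAP25 and SYN2 r was 0.928 (exact permutation p = 0.000174, adjusted p = 0.00243; rho 0.952). Without the 2 libraries farthest from the median of the first gene, these r were 0.880, 0.888 and 0.931.

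Of all 28 pairs over those 8 libraries, 22 had an r above 0, the median was 0.69, and 9 had an exact permutation p below 0.05 after adjustment over the 28 pairs (10 by Spearman's rho). The r of these 9 pairs ran from 0.786 to 0.967, and from 0.456 to 0.952 without the 2 farthest libraries. The median over the 28 pairs ran from 0.54 to 0.74 when each of the 8 libraries was left out in turn, and was lowest without Prepuberty 2. The 6 pairs that were not above 0 over the 8 libraries all held CPLX1. SYT1 and SYN1 had r = 0.551 (exact permutation p = 0.167), and r was -0.15 without the 2 farthest libraries, so that this relation rested on those samples. After the stage means had been subtracted, the median over the 28 pairs was 0.73, so that the correlation remained within stages. Over all pairs among the 7002 genes with a mean of at least 5 FPKM, the median r in the same 8 libraries was 0.04. The correlation was not particular to the 8 genes, since r with the mean log2 level of the list of SNARE core and regulators over the 8 libraries was 0.96 for SNAP25 and for SYP (exact permutation p = 0.000496 and 0.000322, adjusted p = 0.00595 and 0.00556 over 48 relations; rho 0.90 and 0.98), 0.91 for SYN1 and 0.90 for SYN2 (exact permutation p = 0.00265 and 0.00233, adjusted p = 0.0159 for both; rho 0.88 and 0.79). It was 0.78, 0.75, 0.38 and -0.48 for SYT1, VAMP2, STX1A and CPLX1, with adjusted p from 0.103 to 0.451 by exact permutation. Without the 2 farthest libraries r was 0.81, 0.84, 0.80 and 0.78 for SNAP25, SYP, SYN1 and SYN2.

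STX1A had r from -0.43 to 0.67 with the other 7 genes over the 8 libraries, and 0 of these 7 pairs had an adjusted p below 0.05. CPLX1 had r from -0.58 (SYN1) to 0.01 (VAMP2), with a median of -0.41 and 0 pairs passing. Without the 2 libraries farthest from the median of the other gene, the median of these 7 pairs turned to 0.26 (from -0.61 to 0.84), so that their direction rested on those libraries. With Puberty 2 included, the median over the 28 pairs was 0.53 and 5 pairs passed. SNAP25 and VAMP2 then had an r of 0.24, in place of 0.77 without it, and SNAP25 and CPLX1 an r of -0.70, in place of -0.41. Prepuberty 2 carried part of the correlation over the 9 libraries, since without it the median was 0.35. All values of 1 library share its depth and its RNA sample, and the libraries are 8 or 9 points.

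**Figure D3:**
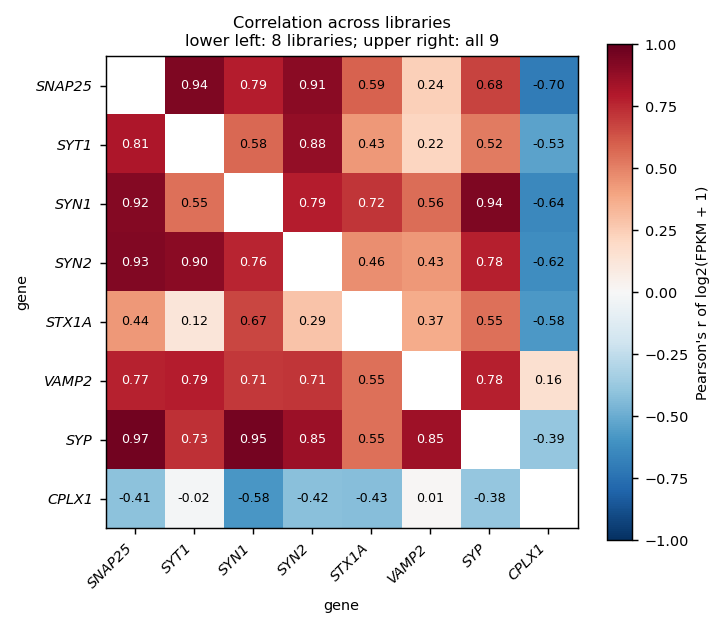
Pearson's r of log2(FPKM + 1) for each pair of release genes (colour from -1 to 1, and printed), over the 8 libraries without Puberty 2 at the lower left and over all 9 at the upper right. Of the 28 pairs 22 lie above 0 on each side, and 6 of the 7 values of CPLX1 are below 0 on each side.

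Several of the genes have close relatives, and the dominant member differed between families. CPLX2, the other complexin abundant in brain, was higher than CPLX1 in 8 of 9 libraries and stood at 36.7 to 171 FPKM in the 8 libraries. In Puberty 2 alone CPLX2 was lower, at 28.0 FPKM against 71.2 for CPLX1.

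VAMP1, which replaces VAMP2 at some synapses, was higher than VAMP2 in 6 of 9 libraries. The exceptions were Prepuberty 1 at 55.7 FPKM, Postpuberty 1 at 38.7 FPKM and Puberty 2 at 92.5 FPKM. SNAP23, the widely expressed relative of SNAP25, was at most 6.51 FPKM, and VAMP3 at most 27.6 FPKM in the 8 libraries and 60.1 FPKM in Puberty 2. SYN2 stood at a median of 0.351 of the level of SYN1. SYT2, another fast calcium sensor, was below SYT1 in all libraries except Puberty 2, where it stood at 4.47 FPKM against 3.13.

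**Figure D4:**
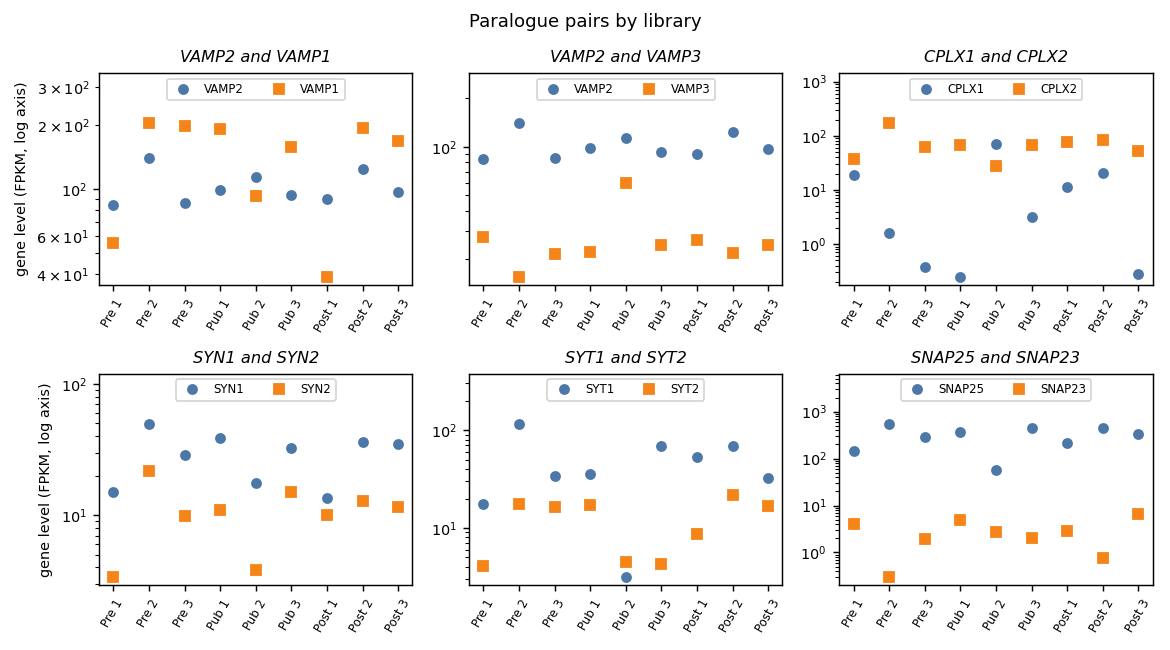
Levels in FPKM (vertical log axis) of 6 gene pairs in each of the 9 libraries, with the first-named gene as circles and its relative as squares. CPLX2 lies above CPLX1 in 8 of 9 libraries, whereas VAMP3, SNAP23 and SYN2 lie below VAMP2, SNAP25 and SYN1 throughout.

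The wider pathway was read from 6 lists with 110 genes, of which 102 were kept. In these, 0 genes passed the thresholds in any comparison (percent called over all genes 0). Stages did not overlap for 2 of the 102 genes between prepuberty and puberty (1.96%), for 6 between puberty and postpuberty (5.88%) and for 3 between prepuberty and postpuberty (2.94%), near or below the 5.16%, 7.32% and 4.57% of all genes. The median difference over the 102 genes was -0.27, 0.39 and 0.07 in the same order, beside -0.14, 0.19 and 0.05 over all genes. Without Puberty 2 it was 0.09, -0.03 and 0.07, beside 0.02, 0.03 and 0.05.

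In the list of SNARE core and regulators (13 genes kept), VAMP1 had stage means of 152, 147 and 133 FPKM and differed by 0.10 between prepuberty and puberty on the log2 scale (SE 0.69, limma adjusted p = 0.965), and by 0.40 without Puberty 2 (SE 0.80). Among vesicle proteins (30 kept) SYT11, a synaptotagmin without calcium binding, stood at 117 to 205 FPKM, and RAB3A, the vesicle GTPase, at 28.5 to 135 FPKM. RAB3A was lowest in Puberty 2, Postpuberty 1 and Prepuberty 1.

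In the active zone list (15 kept), which holds the scaffold beneath the release site, APBA1 stood at 5.39 to 34.3 FPKM and RIMS3 at 2.16 to 27.0 FPKM, both lowest in Puberty 2. In the vesicle retrieval list (8 kept) DNAJC6, which strips clathrin from vesicles, stood at 7.71 FPKM in Puberty 2 and at 44.8 to 85.9 in the others. SH3GL2, an endophilin, stood at 11.7 FPKM in Puberty 2 and at 17.0 to 77.6 in the others. All 8 genes of this list had a lower mean on the log2 scale in puberty than in prepuberty, with 0 of 8 at an unadjusted limma p below 0.05, and the median difference was -0.30, beside -0.14 over all genes. Without Puberty 2, 6 of the 8 were higher in puberty, with a median of 0.22 beside 0.02 over all genes.

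In the list of dense-core vesicle release (13 kept), PCSK1N, an inhibitor of prohormone cleavage, stood at 871 FPKM in Puberty 2 and at 122 to 238 in the other 8 libraries. CHGA, a granin of peptide vesicles, stood at 131 FPKM in Puberty 2, within the range of 28.9 to 166 of the others. Neither passed the test, with log2 differences of 0.84 and 0.90 between prepuberty and puberty (limma adjusted p = 0.838 for both). Without Puberty 2 these differences were 0.073 and 0.88. Of the SNAREs of general membrane traffic (23 kept), VTI1B stood at 52.0 to 67.9 FPKM in the 8 libraries and STX7 at 30.7 to 40.3, whereas Puberty 2 held 98.1 and 10.7 FPKM.

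Named after their values were seen, 4 genes of the lists had an unadjusted limma p below 0.05 in some comparison. They were 1, 2 and 2 of the 102 genes in the 3 comparisons, beside 1.82%, 2.14% and 0.815% of all genes, and 0, 1 and 2 without Puberty 2, beside 1.66%, 2.11% and 1.87%. RIMS4 differed by -1.60 between prepuberty and puberty (limma adjusted p = 0.838) and was listed at 0 in Puberty 2. SYNJ1, the phosphatase that helps to uncoat vesicles, was 1.11 higher in postpuberty than in puberty (limma adjusted p = 0.780), and stood at 0.0109 FPKM in Puberty 2 against 2.09 and 2.25 in the other pubertal libraries. Without Puberty 2 the difference was -0.97 for RIMS4 and 0.56 for SYNJ1, and neither had an unadjusted limma p below 0.05. PPFIA3 was 0.74 higher in postpuberty than in prepuberty and CADPS2, a priming factor of dense-core vesicles, 0.97 higher (limma adjusted p = 1 for both).

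SYN1, SYP, SNAP25 and VAMP2 varied opposite to the oligodendrocyte markers of the same libraries. Over the 8 libraries, the r with the mean log2 level of the 8 oligodendrocyte markers was -0.95 for SYN1 (exact permutation p = 7.44e-05, adjusted p = 0.00357 over 48 relations; rho -0.98), -0.95 for SYP (exact permutation p = 0.000347, adjusted p = 0.00556; rho -0.95) and -0.90 for SNAP25 (exact permutation p = 0.00228, adjusted p = 0.0159; rho -0.83). For VAMP2 it was -0.85 (exact permutation p = 0.00541, adjusted p = 0.0288; rho -0.93). Without the 2 farthest libraries r was -0.94, -0.96, -0.92 and -0.80. The r of SYT1, SYN2 and STX1A was -0.64, -0.75 and -0.75 and that of CPLX1 was 0.40, none past the adjusted threshold. With Puberty 2, r was -0.88 for SYN1, -0.93 for SYP, -0.50 for SNAP25 and -0.83 for VAMP2. Other glial markers also ran opposite to these genes over the 8 libraries. With astrocyte markers r was -0.65, -0.69, -0.68 and -0.62 in the order just given, and with microglia markers -0.58, -0.74, -0.71 and -0.65. None of these passed the adjusted threshold. With Puberty 2, r with astrocyte markers was 0.04, -0.17, 0.55 and -0.49.

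The neuron markers left the 8 libraries in separate ranges, with mean log2 levels of 4.40 in Postpuberty 1 and 5.09 in Prepuberty 1 and of 5.94 to 6.49 in the other 6. Over all 8 libraries r with the neuron markers was 0.93 for SYN1 (exact permutation p = 0.00265, adjusted p = 0.0159; rho 0.81), 0.83 for SYP (exact permutation p = 0.017, adjusted p = 0.0815; rho 0.69) and 0.76 for SNAP25 (exact permutation p = 0.0318, adjusted p = 0.104; rho 0.57). For STX1A, SYN2, VAMP2 and SYT1 it was 0.69, 0.54, 0.51 and 0.26 and for CPLX1 -0.62, none past the adjusted threshold. Within the 6 libraries r of SYN1, SYP and SNAP25 was 0.47, 0.35 and -0.05, so that these relations rested on Prepuberty 1 and Postpuberty 1. Prepuberty 1 and Postpuberty 1 were thus low in neuron markers, high in oligodendrocyte markers and low in SNAP25, SYP and SYN1. Their mean log2 levels of endothelial and mural markers were 4.64 and 4.83, beside 3.81 to 4.32 in the other 6. Those of astrocyte markers were 6.88 and 6.83, beside 6.44 to 6.82. Microglia markers stood at 5.54 and 4.69, beside 3.64 to 5.29. With the neuron marker level as a covariate, 0 of 8 genes were called in each stage comparison, as without it. As 0 were called in either fit, the covariate could not show a part of these markers in stage differences. The relations with the marker lists were tested only as correlations, and their cause was not tested.

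**Figure D5:**
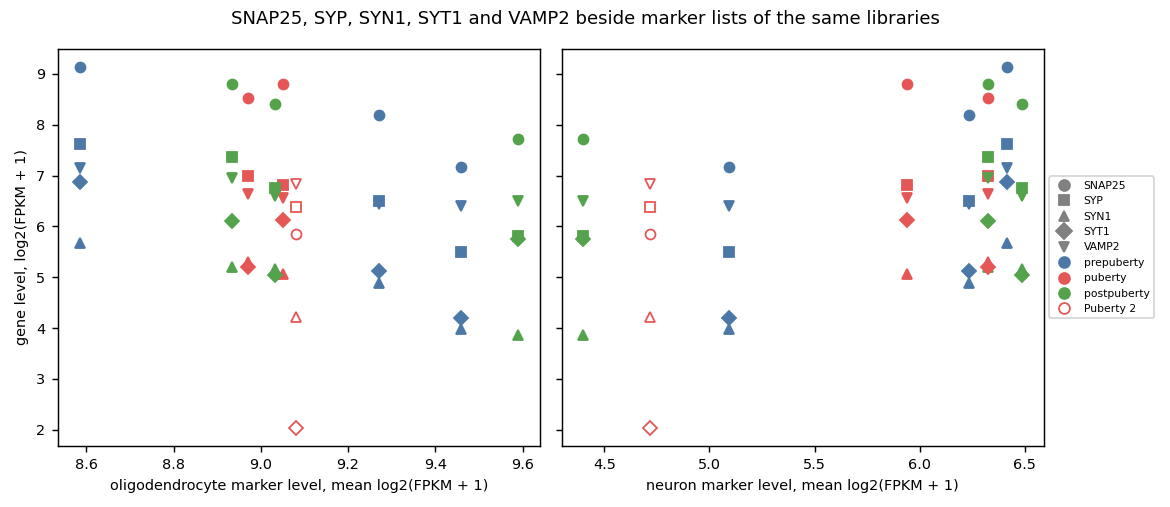
Levels of SNAP25, SYP, SYN1, SYT1 and VAMP2 on the log2(FPKM + 1) scale (vertical axis) against the mean log2(FPKM + 1) of the oligodendrocyte markers (left) and the neuron markers (right), 1 point per gene and library, coloured by stage, with Puberty 2 open. At the left SYN1 and SYP fall as the marker level rises, and at the right Postpuberty 1, Puberty 2 and Prepuberty 1 lie apart at 4.40, 4.72 and 5.09.

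Outside the release genes, the pathway lists and the marker lists, the genes with the highest mean r with the 8 release genes over the 8 libraries were LOC101107906 (0.713), PPP2R1A (0.712), TSPYL4 (0.712), TUSC3 (0.711) and ABHD12 (0.710), out of 7002 genes. PPP2R1A encodes a scaffold subunit of protein phosphatase 2A and stood at 101 to 181 FPKM in the 8 libraries. TUSC3 stood at 13.8 to 47.5 FPKM and TSPYL4 at 52.8 to 205 FPKM. Among those libraries each of these 5 genes was lowest in Prepuberty 1 and highest in Prepuberty 2, and each had an r below 0 with CPLX1, from -0.31 to -0.17.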

How the data were processed

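RNA of hypothalamic tissue from 9 ewes was sequenced, 1 library per animal. The authors trimmed reads with Trimmomatic (0.32 per the submitters' processing notes), aligned them with HISAT2 to ARS-UI_Ramb_v3.0 and assembled and quantified transcripts with StringTie. The deposited values are FPKM for 115108 transcripts per library. The table holds no read counts, so precision is given by the spread between ewes, and p-values refer to that spread. Of these transcripts, 76682 with an NM_ or XM_ identifier were joined to RefSeq symbols and summed to 21284 genes. Genes with a mean of at least 0.5 FPKM in at least 1 stage (14238) were tested with limma 3.58.1 (R 4.3.3) on log2(FPKM + 1), with a trend on mean expression, all 9 libraries in 1 fit, Benjamini-Hochberg adjustment over all genes, and genes called where the log2 fold change reached 1 in size with an adjusted p below 0.05. A fold change on this scale understates that of low genes. The same model was run on transcripts, and it was tested on simulated data. Correlations used exact permutation p (scipy 1.17.1). The genes and lists were chosen with earlier results of these data known. Named genes were the 8 release genes, called genes and the 2 most abundant genes of each list, and the 5 genes with the highest mean r. Of the genes this rule names, 1 is not reported here. Alternatives were other pseudocounts, filters and scalings, library weights, the variance prior, a neuron marker covariate, the replicate number as a block, and leaving out each library. Protein and promoter sequences were not used here.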

Additional observations from a re-analysis of the deposited data

How the results depend on the processing

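No gene of the release machinery and no gene of the pathway lists passed the thresholds under any setting run, and over all genes 0 passed except with library quality weights, where 4 genes passed between prepuberty and puberty (ITPR1, P2RY1, PIGS and PRR18) and 1 between puberty and postpuberty (PRR18), named after their values were seen. That fit weights Puberty 2 at 0.0653 and Prepuberty 3 at 8.13. Between libraries of different stages with the same replicate number, correlations of deviations from the stage mean ran from -0.31 to 0.51. Between those with different numbers they ran from -0.56 to 0.31, which does not settle whether the numbers pair the ewes. With the replicate number as a block 0 genes passed in each comparison. Over the 9 libraries the median r of the pairs was 0.53, and it was 0.76 on log2(TPM + 1) and 0.57 with stage means subtracted. Over the 8 libraries without Puberty 2 it was 0.69, 0.70 and 0.73 in the same order. It was 0.35 to 0.69 when each of the 9 libraries was left out in turn. The median difference of all genes between prepuberty and puberty moved from -0.14 to -0.30 with TPM scaling, to 0.01 with quantile normalisation and to 0.02 without Puberty 2, and the cause was not tested. No difference of the 8 genes had passed, and their directions turned often (differences on the log2 scale, later stage minus earlier stage). With scaling to a common total (TPM) the difference between prepuberty and puberty turned to -0.19 for SYN1, -0.19 for VAMP2 and -0.026 for SYP, and the difference between puberty and postpuberty turned to 0.10 for SYN1, 0.16 for SYP and 0.26 for CPLX1. With upper quartile scaling the difference between puberty and postpuberty turned to -0.13 for VAMP2, and the difference between prepuberty and postpuberty turned to -0.024 for VAMP2. With quantile normalisation the difference between prepuberty and puberty turned to 0.14 for SYN2, -0.22 for VAMP2 and -0.0039 for SYP, and the difference between puberty and postpuberty turned to -0.12 for STX1A, 0.078 for SYP and 0.088 for CPLX1, and the difference between prepuberty and postpuberty turned to -0.019 for VAMP2. With library quality weights the difference between prepuberty and puberty turned to 0.42 for SNAP25, 0.34 for SYT1, 0.31 for SYN2 and 0.10 for STX1A, and the difference between puberty and postpuberty turned to -0.23 for SNAP25, -0.081 for SYN2 and 1.27 for CPLX1, and the difference between prepuberty and postpuberty turned to 0.20 for STX1A. With the neuron marker level as a covariate the difference between prepuberty and puberty turned to 0.088 for SYN2, and the difference between puberty and postpuberty turned to -0.0016 for VAMP2 and 0.11 for CPLX1, and the difference between prepuberty and postpuberty turned to 0.024 for SYN1. With that covariate and without Puberty 2, chosen after seeing the data, the difference between prepuberty and puberty turned to 0.36 for SNAP25, 0.19 for SYT1, 0.33 for SYN2, -0.10 for VAMP2 and -0.58 for CPLX1, and the difference between puberty and postpuberty turned to -0.098 for SNAP25, 0.064 for SYP and 1.10 for CPLX1, and the difference between prepuberty and postpuberty turned to 0.028 for SYN1. With a pseudocount of 0.1 the difference between puberty and postpuberty turned to 0.066 for CPLX1. With a pseudocount of 0.5 the difference between puberty and postpuberty turned to 0.0079 for CPLX1. When each library was left out in turn, differences between prepuberty and puberty ran from -0.87 to 2.06 for CPLX1, from -0.98 to 0.50 for SNAP25, from -0.42 to 0.42 for SYN1, from -0.69 to 0.50 for SYN2, from -0.34 to 0.73 for SYP, from -1.79 to 0.26 for SYT1 and from -0.11 to 0.26 for VAMP2. Those between puberty and postpuberty ran from -1.30 to 1.63 for CPLX1, from -0.35 to 1.13 for SNAP25, from -0.10 to 0.40 for STX1A, from -0.44 to 0.32 for SYN1, from -0.16 to 0.71 for SYN2, from -0.44 to 0.34 for SYP, from -0.024 to 2.02 for SYT1 and from -0.13 to 0.10 for VAMP2. Those between prepuberty and postpuberty ran from -0.051 to 1.98 for CPLX1, from -0.34 to 0.63 for SNAP25, from -0.42 to 0.086 for STX1A, from -0.54 to 0.33 for SYN1, from -0.34 to 0.85 for SYN2, from -0.42 to 0.65 for SYP, from -0.37 to 0.97 for SYT1 and from -0.11 to 0.27 for VAMP2.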
